A study of Homo sapiens with 6 samples.

Results

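The S100 and annexin genes encode families of calcium-dependent proteins, and their expression is described here in MDA-MB-231 cells depleted of Sam68. Members were the loci of the deposited table whose symbol is S100A or ANXA followed by a number, or is S100B, S100P or S100PBP. This gave 30 of the 74852 loci: 17 S100 genes, 12 annexin genes and S100PBP, which encodes a nuclear protein that binds S100P. MDA-MB-231 is a human triple negative breast cancer line of mesenchymal type, and KHDRBS1 encodes Sam68, an RNA-binding protein that takes part in splicing. The cells received 2 rounds of transfection with control siRNAs or with siRNAs pooled against SAM68, here si-CTRL and si-SAM68 with 3 libraries each. By the labels, harvest was 24 h after the second round; the methods of the study give another time. Polyadenylated RNA was sequenced, and the control cells share the line, the transfection reagent and the rounds of transfection with the depleted ones. The cells are a single cancer line with transient depletion, and the labels do not say whether replicates came from separate cultures, so p-values measure the spread between these libraries, which may be technical.

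S100 proteins are small proteins with paired EF-hand motifs, in which a loop of the chain holds a calcium ion. Most form dimers and, once calcium is bound, expose a surface that grips target proteins. Annexins bind acidic phospholipids of membranes when calcium is present, and their N-terminal tails are docking sites for S100 partners. S100A10 with ANXA2 and S100A11 with ANXA1 are the best known of these complexes, and several members of both families have been studied for their part in migration and membrane repair of breast cancer cells.

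The siRNAs define the treatment, so their sequences are shown, as listed in the supplement of the study. Written as the sense strand, each matched annotated KHDRBS1 transcripts over all of its 19 bases (4 transcripts for siSAM68_1, siSAM68_2 and siSAM68_3, and 3 for siSAM68_4). The capitals mark the 7 bases that pair with positions 2 to 8 of the guide strand.
siSAM68_1: gcacccauaugGACGUUAu
siSAM68_2: gaaagagcgagUGCUGAUa
siSAM68_3: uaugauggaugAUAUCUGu
siSAM68_4: aaagaucucugUAUUGGGa

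The deposited value of a locus is its normalized read count, the reads counted on it divided by the size factor of the library. The reads behind these values numbered 52625492, 67124351 and 69355385 in si-CTRL 1, 2 and 3, and 65473122, 82568487 and 59488569 in si-SAM68 1, 2 and 3. S100 genes held between 0.127% and 0.182% of each library's reads and annexin genes between 0.328% and 0.364%, leaving aside the rRNA locus described next.

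A pair of libraries stood apart from the others. In si-SAM68 2, the rRNA precursor locus RNA5-8S5 // RNA45S5 held 15.1% of the reads, against 1.83% to 3.17% in the other 5. In si-CTRL 1, genes with short transcripts were low. Among 489 tested genes with a transcript under 1000 nt, the median log2 difference between si-CTRL 1 and the mean of si-CTRL 2 and 3 was -0.27 (-0.266), against 0.018 over all 12031 tested genes with a known length. The tested S100 genes have transcripts of 594 to 1218 nt, and 8 of the 11 were lower in this library, as set out below. For comparison, 47.1% of all tested genes with a known length lay below -0.003. Whether length accounts for the S100 values was not tested. Results without these libraries are given for some of the genes that they move.

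KHDRBS1, the silenced gene, was measured first (locus GSHG0000334, chromosome 1 from 32479295 to 32526460 of hg19). Its normalized read counts were 15660, 14483 and 14737 in si-CTRL 1, 2 and 3, and 583, 602 and 670 in si-SAM68 1, 2 and 3. Every si-SAM68 library lay far below every si-CTRL library, as the labels require. The log2 fold change was -4.60 (adjusted p = 2.13e-09 by limma, standard error 0.083 with Benjamini-Hochberg adjustment over all 18849 loci tested), and 4.13% of the si-CTRL mean was left.

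Markers of the line were checked as well. The mesenchymal gene VIM had between 138300 and 173162 normalized reads in all libraries, CD44 between 43246 and 68397, and the proliferation gene MKI67 between 40210 and 58003. The hormone receptor gene PGR was listed at 0 throughout, ESR1 reached 15.2 at most, and the epithelial gene CDH1 reached 4.6. EPCAM had 2.5, 2.91 and 1.9 in si-CTRL 1, 2 and 3 and 3.02, 9.2 and 8.94 in si-SAM68 1, 2 and 3, and the basal keratin gene KRT14 had 10, 13.6 and 13.3, and 4.03, 5.52 and 6.7, in the same order. Neither pair of groups overlapped in normalized reads, in opposite directions, where 33.9% of all loci tested did not overlap. For EPCAM the gap rests on the size factors, since 2.91 in si-CTRL 2 and 3.02 in si-SAM68 1 are both 3 reads. Both genes were below the minimum for the test, and KRT5 was at 0 in all libraries. ERBB2, which a triple negative line does not amplify, was between 2413 and 3447. Markers of the other cells that make particular S100 proteins were mostly low, with KRT10 (mean 1037) and MITF (mean 435) the highest. The 6 myeloid markers summed to between 185 and 286 normalized reads, none of the 6 at 0 in all libraries, with ITGAM the most abundant (mean 91.7) and the defining gene PTPRC at a mean of 6.51. The 4 keratinocyte markers summed to between 854 and 1245, nearly all from KRT10, with KRT1 and LOR at 0 in every library. The 5 melanocyte and glial markers summed to between 479 and 630, mainly from MITF, with MLANA at 0.

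Of these markers only IVL, an envelope protein of keratinocytes, passed the test with all libraries. It had 80, 56.2 and 54.2 normalized reads in si-CTRL 1, 2 and 3 and 16.1, 28.5 and 40.2 in si-SAM68 1, 2 and 3 (log2 fold change -1.21, adjusted p = 0.0465 by limma and 0.0782 with the replicate block, in a range of 0.0169 to 0.118 over all alternatives). The 3 endothelial markers summed to 76.2, 52.3 and 49.4 in si-CTRL 1, 2 and 3, and to 32.2, 31.3 and 35.7 in si-SAM68 1, 2 and 3. CDH5 was the most abundant of them (mean 21.9, adjusted p = 0.0756 by limma) and none was at 0. The melanocyte and glial sum was 517, 525 and 479 in si-CTRL 1, 2 and 3, and 598, 630 and 594 in si-SAM68 1, 2 and 3, without overlap. CSF1R, of the myeloid markers, had 109, 79.4 and 110, and 68.5, 65.3 and 62.6, in the same order, also without overlap (adjusted p = 0.0791 by limma, in a range of 0.0472 to 0.218 over all alternatives), whereas the groups of ITGAM overlapped. CD44 had 68397, 43246 and 50680, and 58743, 63830 and 57327, so that all si-SAM68 values were above si-CTRL 2 and 3 but below si-CTRL 1. Its adjusted p was 0.476 with all libraries and 0.0134, higher in si-SAM68, without si-CTRL 1, in a range of 0.0134 to 0.923 over all alternatives. All libraries are of a single cultured line, MDA-MB-231, so these markers are not read as counts of other cell types. The part of these markers in the changes of S100 and annexin genes was not tested. In these bulk samples fewer cells with a transcript and less of it per cell cannot be told apart.

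Of the 30 members, 23 had a mean of at least 10 normalized reads and were tested: 11 S100 genes, 11 annexin genes and S100PBP. The remaining 7 were below that minimum. S100A8, S100A9 and S100A12, the calprotectin and calgranulin genes of myeloid cells, S100A7 (psoriasin, of keratinocytes) and S100B, of glia and melanocytes, had 0 reads in all 6 libraries. A count of 0 allows up to 3 reads, or between 2.76 and 3.75 normalized reads depending on the library, for counting error only. S100P reached 2.01 in a single si-SAM68 library and 1.9 in a single si-CTRL library. ANXA13, an annexin of the intestine and kidney, ranged from 4.6 to 16.2 with a mean of 9.45, just under the minimum, whereas the lowest member above it, S100A14, had a mean of 27.7.

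**Figure D1:**
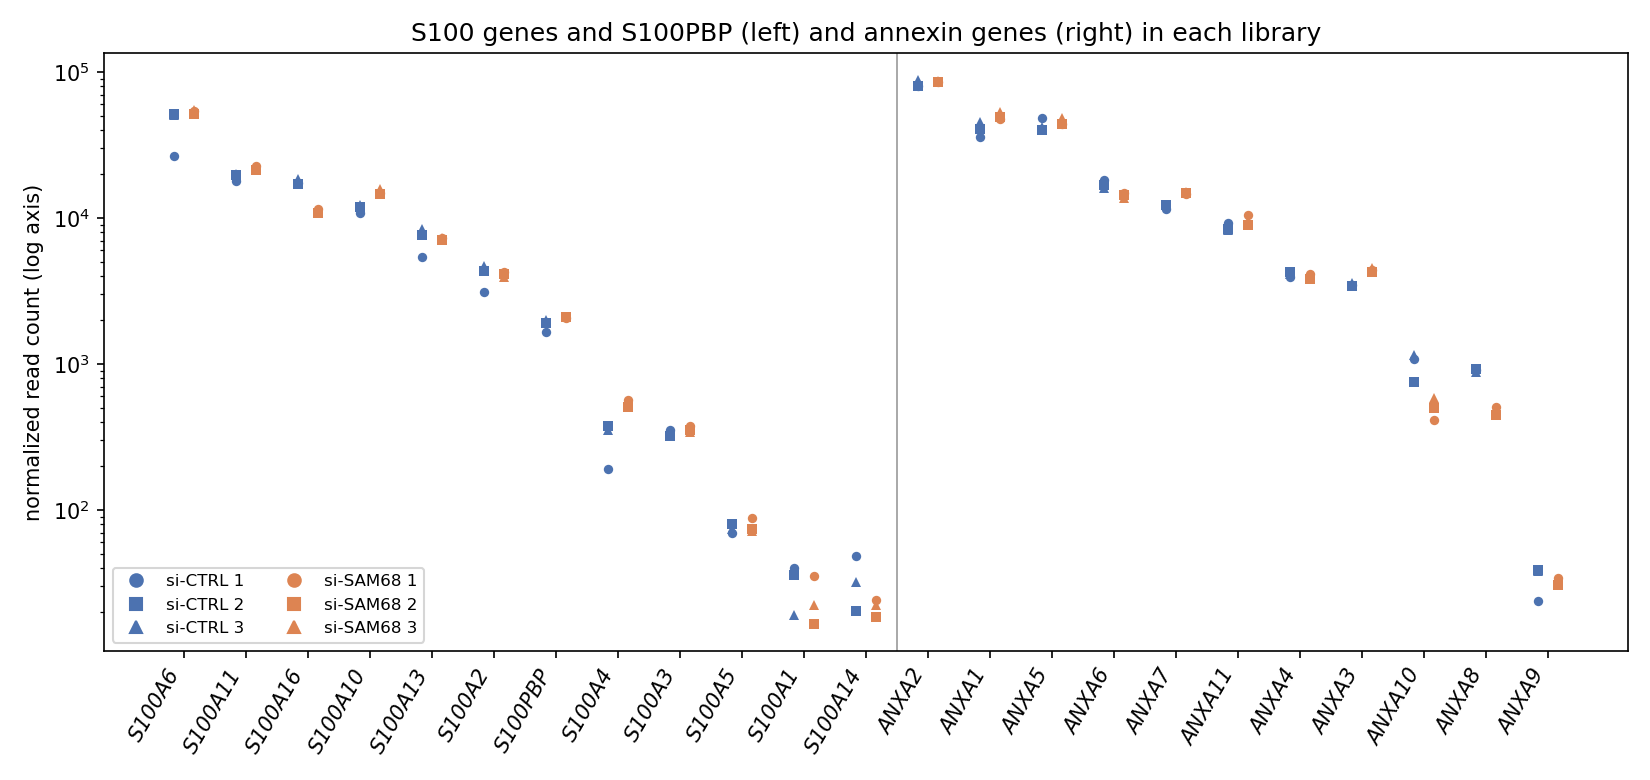
Normalized read count (log axis) of the 23 tested genes in each library, S100 genes and S100PBP on the left and annexin genes on the right, each ordered by mean. Blue symbols are si-CTRL and orange symbols si-SAM68 libraries. S100A6 in si-CTRL 1 (26521) lies below the other 5 libraries, which are between 51126 and 55068.

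Levels between genes were compared per kilobase of the principal GENCODE transcript. S100A6, a calcium-binding partner of ubiquitin ligase adaptors, had the highest level with 63824 ± 21146 normalized reads per kilobase in si-CTRL (SD, n = 3). ANXA2, which joins membranes and actin, followed with 49379 ± 2709, and S100A11, which partners ANXA1 and ANXA2, with 32501 ± 1812 (SD, n = 3 each). The order of S100A6 and ANXA2 did not hold in every library, as S100A6 had 39408 per kilobase in its lowest library and ANXA2 never less than 47778. ANXA5 (24721 ± 2544), a phosphatidylserine binder, and ANXA1 (18515 ± 2205), an anti-inflammatory annexin, came next (SD, n = 3). At the other end, S100A5, S100A1, S100A14 and ANXA9 had between 13 and 125 per kilobase in all libraries. These lengths are those of GENCODE and not of the annotation in which reads were counted.

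A small group of genes supplied most of the reads of each family. In si-CTRL cells S100A6, S100A11, S100A16 and S100A10 made up 40.6% ± 7.2, 18.9% ± 2.7, 17.5% ± 3.2 and 11.5% ± 1.5 of the normalized reads on S100 genes (SD, n = 3). In si-SAM68 cells the share of S100A16 was 9.83% ± 0.15 and that of S100A6 47.0% ± 0.58 (SD, n = 3). ANXA2 held 38.6% ± 0.98 of the annexin reads with si-CTRL and 37.4% ± 0.71 with si-SAM68 (SD, n = 3). The summed S100 genes had 82115, 112952 and 115966 normalized reads in si-CTRL 1, 2 and 3 and 115563, 110780 and 115446 in si-SAM68 1, 2 and 3, so that si-CTRL 1 alone lay apart. The summed annexin genes had 213319, 207832 and 222426 in si-CTRL, and 227423, 226904 and 237139 in si-SAM68 libraries, in the same order, and their groups did not overlap.

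Comparing si-SAM68 with si-CTRL cells, S100A16, ANXA8 and ANXA10 fell, each to between 50% and 63.2% of its si-CTRL mean. S100A4, S100A10, ANXA3 and ANXA7 rose, S100A4 to 174% and the others to between 123% and 128% of theirs. The other 16 tested members did not pass the test, the most abundant ones (S100A6, ANXA2, S100A11, ANXA5 and ANXA1) among them. Thus 7 of 23 members had an adjusted p under 0.05 by limma, 4 higher and 3 lower, where 10.7% of all loci tested did (4.47% higher and 6.23% lower). The thresholds of the study (unadjusted p ≤ 0.05, fold change ≥ 1.5) were passed by 4 members, S100A4 higher and S100A16, ANXA8 and ANXA10 lower. Over all loci 7.67% passed them, 2.83% higher and 4.83% lower. These counts apply the thresholds to the limma fit used here, where 1445 loci passed, more than the study lists from its own analysis. The median log2 fold change was 0.06 over the members and 0.005 over all loci, and the median absolute value was 0.25 and 0.19. Among genes with a mean of at least 1000 normalized reads, 4 of 15 members and 12.6% of all 7991 such loci had an adjusted p under 0.05. Groups did not overlap in 12 members, 8 higher and 4 lower, against 33.9% of all loci; without si-CTRL 1 this was 19 members against 46.5% of all loci.

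The adjusted calls moved with the library left out. Without si-SAM68 1, 2 or 3, only S100A16, ANXA8 and ANXA10 kept an adjusted p under 0.05, while the calls over all loci were 4.9%, 4.29% and 3.32%. Without si-CTRL 1 there were 8 called members, ANXA6 being the added one, and 15.1% of all loci. Without si-CTRL 2 or 3 there were 5 and 6 called members, and 8.45% and 5.85% of all loci. Without both si-CTRL 1 and si-SAM68 2, an alternative chosen after the data were seen, the same 7 members and 10.4% of all loci were called.

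**Figure D2:**
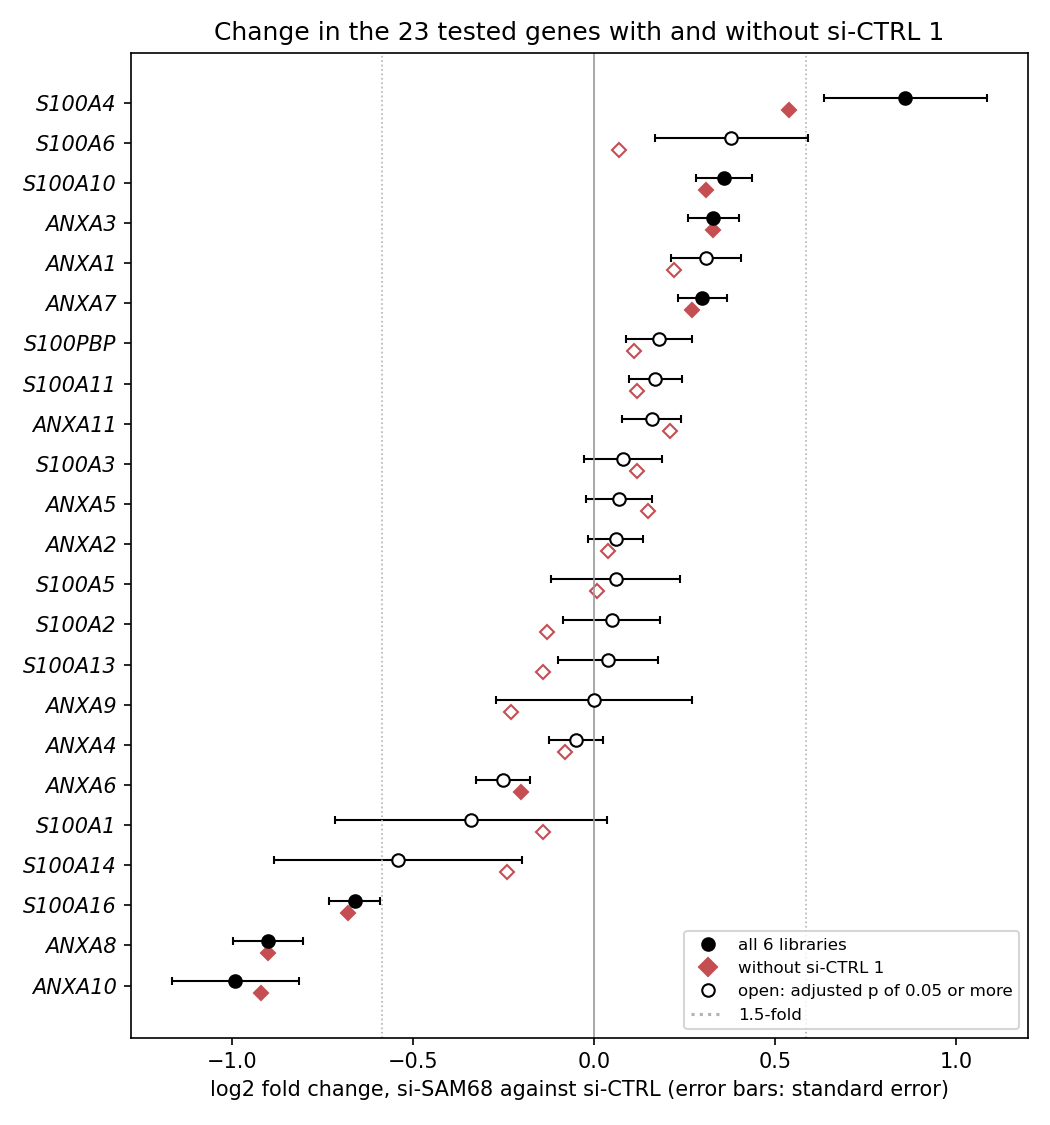
log2 fold change between si-SAM68 and si-CTRL of each tested gene, with all 6 libraries (circles, bars show the standard error) and without si-CTRL 1 (diamonds). Filled symbols have an adjusted p under 0.05 and dotted lines mark a 1.5-fold change. S100A4 goes from 0.86 to 0.54 and S100A6 from 0.38 to 0.07 without si-CTRL 1, whereas S100A16, ANXA8 and ANXA10 stay below -0.6.

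S100A16 is an S100 protein found in many tissues and raised in several tumours. Its locus (GSHG0002548) lies on chromosome 1 of hg19 from 153579355 to 153585644. The normalized read counts were 17389, 17239 and 18558 in si-CTRL 1, 2 and 3, and 11531, 10893 and 11168 in si-SAM68 1, 2 and 3. All si-SAM68 libraries were below all si-CTRL libraries, by several times the spread within each group. The mean went from 17729 ± 722 to 11198 ± 320 (SD, n = 3), a log2 fold change of -0.66 (adjusted p = 0.000802 by limma, standard error 0.070). It was the S100 gene with the smallest adjusted p, and over the alternatives its adjusted p was at most 0.011.

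S100A4, often named metastasin for its link to cell motility, moved the other way (GSHG0002545, chromosome 1 from 153516095 to 153518282). It had 190, 377 and 354 normalized reads in si-CTRL 1, 2 and 3, and 567, 507 and 524 in si-SAM68 1, 2 and 3. The groups did not overlap, but si-CTRL 1 was well under the other controls. The mean rose from 307 ± 102 to 533 ± 31.1 (SD, n = 3), a log2 fold change of 0.86 (adjusted p = 0.0395 by limma, standard error 0.225). Without si-CTRL 1 the log2 fold change was 0.54, a 1.46-fold change that no longer passed the fold threshold of the study, and the adjusted p was 0.00648. The call was lost with the replicate number as a block (adjusted p = 0.052 by limma and 0.054 by edgeR), without a filter on low values (adjusted p = 0.0571) and without any of the si-SAM68 libraries, the range over all alternatives being 0.00164 to 0.139. The share of the low si-CTRL 1 value in this change was not tested otherwise.

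S100A10, also called p11, has lost the ability to bind calcium and works as the partner of ANXA2 in a membrane-bound complex that activates plasminogen (GSHG0002520, chromosome 1 from 151955387 to 151966714). Its normalized read counts were 10880, 11880 and 12355 in si-CTRL 1, 2 and 3, and 14755, 14594 and 15733 in si-SAM68 1, 2 and 3. The lowest si-SAM68 library was above the highest si-CTRL library. The mean rose from 11705 ± 753 to 15027 ± 616 (SD, n = 3), with a log2 fold change of 0.36 (adjusted p = 0.0177 by limma, standard error 0.077). Without si-CTRL 1 it was 0.31 (adjusted p = 0.00721), and without single si-SAM68 libraries the adjusted p reached 0.0899; over all alternatives it was between 0.000758 and 0.0899.

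**Figure D3:**
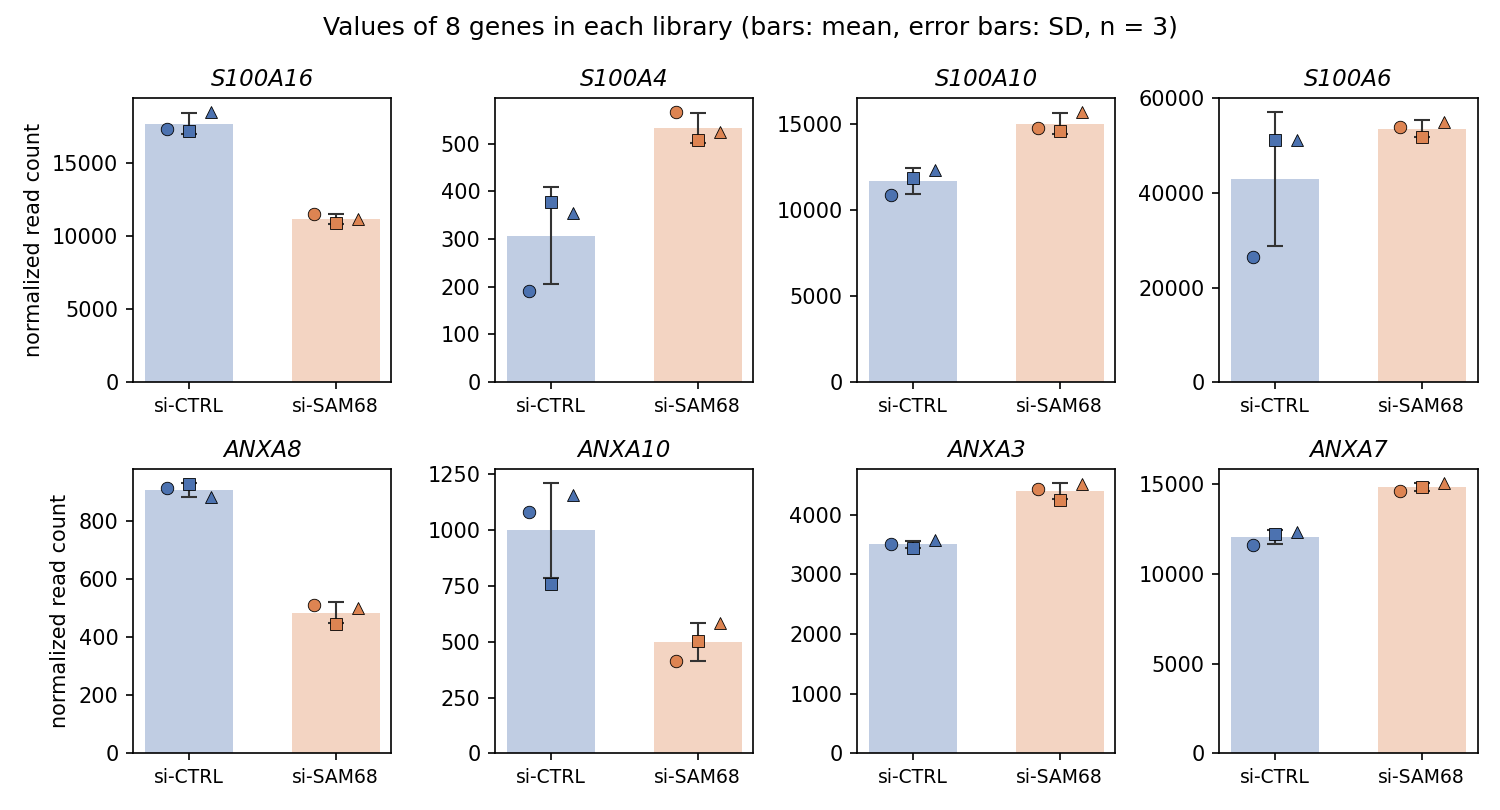
Normalized read counts of the 7 genes with an adjusted p under 0.05 and of S100A6 in si-CTRL (blue) and si-SAM68 (orange) libraries. Bars are means, error bars the SD (n = 3), and circles, squares and triangles replicates 1, 2 and 3. The low si-CTRL 1 values of S100A4 (190) and S100A6 (26521) are visible, and in each panel every si-SAM68 value lies on the same side of the si-CTRL values.

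S100A6, also known as calcyclin, had the most reads of the S100 family and did not pass the test (GSHG0002543, chromosome 1 from 153507076 to 153508717). It had 26521, 51215 and 51126 normalized reads in si-CTRL 1, 2 and 3, and 53980, 51713 and 55068 in si-SAM68 1, 2 and 3. A single control library, si-CTRL 1, was low, and the remaining values lay close together. The log2 fold change was 0.38 (adjusted p = 0.28 by limma, standard error 0.212) with all libraries and 0.07 (adjusted p = 0.512) without si-CTRL 1, the range over all alternatives being 0.137 to 0.512.

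The same library was low for other S100 genes. Its log2 difference to the mean of si-CTRL 2 and 3 was -0.95 for S100A6 (-0.948), -0.94 for S100A4 (-0.939), -0.56 for S100A13 and -0.53 for S100A2, and between 1.34% and 5.88% of all tested genes with a known length had a lower one. For S100A11, S100A10, S100A5 and S100A16 it was between -0.16 (-0.155) and -0.04. S100A14 and S100A1, at few reads, and S100A3 had positive values of 0.90, 0.59 and 0.11. S100A13, which takes part in the release of growth factors without a signal peptide, had 5432, 7644 and 8392 in si-CTRL 1, 2 and 3 and 7334, 7090 and 7316 in si-SAM68 1, 2 and 3. S100A2, a nuclear S100 protein of basal epithelium, had 3121, 4333 and 4678, and 4290, 4116 and 3960, in the same order of libraries. The log2 fold changes of S100A13 and S100A2 were 0.04 and 0.05 with all libraries (adjusted p = 0.878 and 0.856 by limma) and -0.14 and -0.13 without si-CTRL 1 (adjusted p = 0.158 and 0.236). Why this library was low was not tested.

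The S100A genes on chromosome 1 stand in a cluster, and 13 of the 15 S100A loci lie within 276 kb, from 153330329 to 153606568 of hg19. S100A9, S100A12, S100A8 and S100A7 at its start were at 0 reads. From S100A6 onwards all 9 loci were tested. In their order along the chromosome, S100A6, S100A5, S100A4, S100A3, S100A2, S100A16, S100A14, S100A13 and S100A1 had log2 fold changes of 0.38, 0.06, 0.86, 0.08, 0.05, -0.66, -0.54, 0.04 and -0.34. Leaving out 1 library moved S100A14 between -0.86 and -0.24, past the thresholds of the study without si-CTRL 2 only, and S100A1 between -0.66 and -0.10. Of the 9 loci only S100A4 and S100A16 had an adjusted p under 0.05, in opposite directions, and the neighbours S100A3, S100A5 and S100A2 had adjusted p-values between 0.672 and 0.866 by limma. S100A10 and S100A11 lie apart, before the cluster. Reads of some of these loci cannot be told apart if strand was not used in counting, which is not given in the sources used here, although the labels name a stranded library kit: S100A1 lies inside the span of S100A13 on the other strand, and an unnamed locus with a mean of 11.9 overlaps the end of S100A4 and spans S100A3. S100A1, with means of 31.6 and 24.7, is therefore uncertain beside S100A13, with 7156 and 7247 in si-CTRL and si-SAM68 cells.

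Among the tested annexins, ANXA10 and ANXA8 had the largest decreases. ANXA10 is an annexin with little calcium binding, made in gastric epithelium (GSHG0022970, chromosome 4 from 169013688 to 169108893). It had 1080, 757 and 1157 normalized reads in si-CTRL 1, 2 and 3, and 412, 502 and 583 in si-SAM68 1, 2 and 3. The groups did not overlap although both were spread widely. The mean fell from 998 ± 212 to 499 ± 85.6 (SD, n = 3), a log2 fold change of -0.99 (adjusted p = 0.00814 by limma, standard error 0.175), and over all alternatives the adjusted p was at most 0.0437.

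ANXA8 encodes an annexin of epithelia that is linked to basal-like breast tumours (GSHG0032562, chromosome 10 from 48255204 to 48271369). Its normalized read counts were 910, 927 and 880 in si-CTRL 1, 2 and 3, and 511, 444 and 498 in si-SAM68 1, 2 and 3. The values were close together within each group, and every si-SAM68 library was lower. The mean fell from 906 ± 23.6 to 484 ± 35.3 (SD, n = 3), a log2 fold change of -0.90 (adjusted p = 0.000826 by limma, standard error 0.097). The gene has near-identical copies, so its value is uncertain. The copy ANXA8L1, listed apart on the same chromosome and named after its values were seen, had 657, 687 and 635 in si-CTRL 1, 2 and 3 and 451, 454 and 417 in si-SAM68 1, 2 and 3 (log2 fold change -0.58, adjusted p = 0.00651). How reads were split between the copies is not given in the sources used here.

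ANXA3, an annexin studied in angiogenesis and drug resistance, rose (GSHG0022680, chromosome 4 from 79472742 to 79531597). The normalized read counts were 3500, 3448 and 3568 in si-CTRL 1, 2 and 3, and 4430, 4246 and 4511 in si-SAM68 1, 2 and 3. Both groups were tight and did not overlap. The log2 fold change was 0.33 (adjusted p = 0.0195 by limma, standard error 0.071), on means of 3505 ± 60.1 and 4396 ± 136 (SD, n = 3).

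ANXA7, or synexin, drives the fusion of secretory granules with membranes (GSHG0004162, chromosome 10 from 75134860 to 75173843). It had 11600, 12262 and 12350 normalized reads in si-CTRL 1, 2 and 3, and 14650, 14880 and 15086 in si-SAM68 1, 2 and 3. Again the groups did not overlap. The mean rose from 12070 ± 410 to 14872 ± 218 (SD, n = 3), a log2 fold change of 0.30 (adjusted p = 0.0224 by limma, standard error 0.068). The spans of CAMK2G and of an unnamed locus overlap that of ANXA7 in the table. ANXA3 and ANXA7 both missed 0.05 when any library other than si-CTRL 1 was left out, with adjusted p-values between 0.0543 and 0.103, and over all alternatives those of ANXA3 were 0.00134 to 0.0902 and those of ANXA7 0.00197 to 0.103.

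The other annexins did not pass the test. ANXA6, the annexin with a doubled core that regulates cholesterol traffic, came closest, with 18195, 16719 and 16165 normalized reads in si-CTRL 1, 2 and 3 and 14741, 14331 and 13760 in si-SAM68 1, 2 and 3. All its si-SAM68 values were lower, with a log2 fold change of -0.25 (adjusted p = 0.0591 by limma, standard error 0.075). Its adjusted p was 0.0272 with DESeq2 on the recovered reads and 0.042 without si-CTRL 1, within a range of 0.0272 to 0.2 over all alternatives. ANXA2, ANXA4, ANXA5, ANXA9 and ANXA11 had log2 fold changes between -0.05 and 0.16 and overlapping groups. The 16 tested members without an adjusted p under 0.05 had log2 fold changes between -0.54 and 0.38. Standard errors were between 0.178 and 0.375 for the 4 genes with a mean below 100 (ANXA9, S100A1, S100A5 and S100A14) and 0.212 for S100A6, so that in these genes only large changes could be detected. S100PBP had 1650, 1895 and 1990 normalized reads in si-CTRL 1, 2 and 3 and 2055, 2103 and 2109 in si-SAM68 1, 2 and 3 (log2 fold change 0.18, adjusted p = 0.223 by limma). Its span overlaps that of YARS, with a mean of 9416, on the other strand, and the span of ANXA9, with a mean of 33.1, overlaps that of FAM63A, with a mean of 343.

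The partners S100A10 and ANXA2 were compared through their ratio in each library, since their proteins join in a complex. ANXA2 had 80201, 80076 and 88003 normalized reads in si-CTRL 1, 2 and 3, and 85911, 86077 and 86864 in si-SAM68 1, 2 and 3. Its groups overlapped (log2 fold change 0.06, standard error 0.075, adjusted p = 0.639 by limma). The ANXA2 pseudogene ANXA2P2, which can share its reads, had a mean of 411. The ratio of S100A10 to ANXA2 was 0.136, 0.148 and 0.140 in si-CTRL 1, 2 and 3, and 0.172, 0.170 and 0.181 in si-SAM68 1, 2 and 3. All si-SAM68 ratios were above the si-CTRL ratios. The mean log2 ratio went from -2.82 ± 0.065 to -2.52 ± 0.050 (SD, n = 3), a difference of 0.30 (exact permutation p = 0.1, which is also the lowest value that groups of 3 can give, and exact p = 0.25 within pairs). Per kilobase the ratio of the means was 0.197 for si-CTRL and 0.243 for si-SAM68.

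S100A11 and ANXA1 form the other complex. S100A11 had 18070, 19809 and 20039 normalized reads in si-CTRL 1, 2 and 3, and 22580, 21403 and 21221 in si-SAM68 1, 2 and 3. Its groups did not overlap, with a log2 fold change of 0.17 (adjusted p = 0.169 by limma, standard error 0.074). ANXA1 had 36076, 40807 and 45815 in si-CTRL 1, 2 and 3, and 47995, 49543 and 53557 in si-SAM68 1, 2 and 3. Here too every si-SAM68 value was higher, but the spread within groups was large (log2 fold change 0.31, standard error 0.097, adjusted p = 0.0729 by limma). For ANXA1 the adjusted p was 0.0276 with DESeq2 and 0.0488 without si-CTRL 3. With the replicate block it was 0.0457 by edgeR but 0.0513 by limma, in a range of 0.0276 to 0.249 over all alternatives. The ratio of S100A11 to ANXA1 was 0.501, 0.485 and 0.437 in si-CTRL 1, 2 and 3, and 0.470, 0.432 and 0.396 in si-SAM68 1, 2 and 3, and these groups overlapped. If replicate numbers are taken to pair the libraries, the si-SAM68 ratio was the lower within each pair, with log2 differences of -0.09, -0.17 and -0.14. The mean log2 ratio was -1.08 ± 0.102 for si-CTRL and -1.21 ± 0.124 for si-SAM68 (SD, n = 3), a difference of -0.13 (exact permutation p = 0.2, with 0.1 the lowest possible, and exact p = 0.25 within pairs, the lowest that 3 pairs can give). Leaving out 1 library moved this difference between -0.20 and -0.07.

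**Figure D4:**
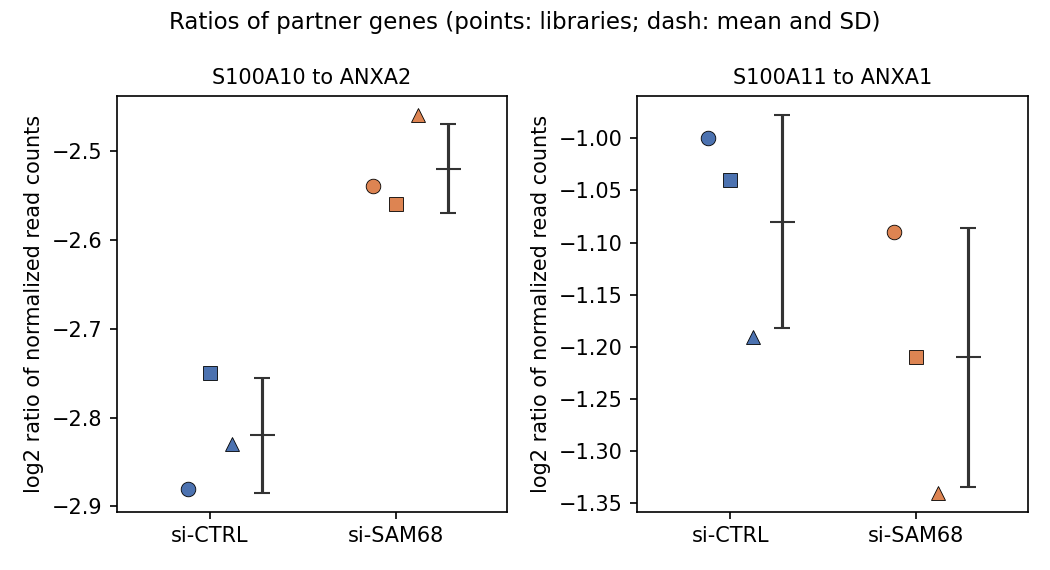
log2 ratio of the normalized read counts of S100A10 to ANXA2 (left) and S100A11 to ANXA1 (right) in each library, with mean and SD of each group (n = 3). The S100A10 to ANXA2 ratios do not overlap between groups, at -2.88 to -2.75 in si-CTRL and -2.56 to -2.46 in si-SAM68 libraries, whereas the S100A11 to ANXA1 ratios do.

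Matches of the siRNAs themselves were looked for in the members. The 7 bases in capitals above were searched, as DNA on the transcript strand, in the 3'UTR of the principal transcript of 11934 tested genes. A match to at least 1 of the 4 was present in 28.1% of these genes and in 4 of the 23 tested members, which were ANXA2 (siSAM68_1), ANXA11 (siSAM68_2), ANXA9 and S100A14 (siSAM68_3). None of these 4 had an adjusted p under 0.05, where 10.7% of all loci did, so that 4 genes are too few to tell whether matches go with a change. A match is a description of the sequence only, and other transcripts of these genes were not searched.

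The promoters of the members past the thresholds of the study are shown because S100A4 and S100A16, both in the cluster, went in opposite directions. They are the 250 bases before and 50 after the first listed start of each gene in RefSeq (GRCh38.p14, a build used here only for these sequences), on the strand of the gene. Of the 23 tested members 22 were found in that table; ANXA8 was not. Capitals mark matches on either strand to any of 4 motifs. These were the TATA box as TATAAA, the CCAAT box as that word itself, the GC box as GGGCGG, and the AP-1 site as TGANTCA with N for any base.
S100A4, chr1:153545757-153546056, minus strand: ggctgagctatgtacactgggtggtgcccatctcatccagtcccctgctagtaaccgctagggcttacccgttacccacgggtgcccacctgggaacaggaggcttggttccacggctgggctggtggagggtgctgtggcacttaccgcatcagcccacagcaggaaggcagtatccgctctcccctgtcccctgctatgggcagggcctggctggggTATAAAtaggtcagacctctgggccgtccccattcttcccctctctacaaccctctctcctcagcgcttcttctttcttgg
S100A16, chr1:153613088-153613387, minus strand: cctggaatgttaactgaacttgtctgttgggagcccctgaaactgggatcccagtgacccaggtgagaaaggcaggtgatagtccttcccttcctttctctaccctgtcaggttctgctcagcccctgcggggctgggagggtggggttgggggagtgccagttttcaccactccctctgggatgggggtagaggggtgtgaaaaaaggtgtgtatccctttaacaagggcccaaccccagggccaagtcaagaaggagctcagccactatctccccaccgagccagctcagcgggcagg
ANXA10, chr4:168092287-168092586, plus strand: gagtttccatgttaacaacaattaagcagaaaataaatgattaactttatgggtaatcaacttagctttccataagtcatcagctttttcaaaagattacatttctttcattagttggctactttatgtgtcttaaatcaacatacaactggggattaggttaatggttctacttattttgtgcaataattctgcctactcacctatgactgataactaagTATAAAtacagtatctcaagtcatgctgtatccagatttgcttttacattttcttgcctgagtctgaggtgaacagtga

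S100A4 and ANXA10 each held a TATAAA, at position -31 and -29 from the start. It was present in 12% of the 27305 promoters of whole length in the table and in 5 of the 22 members. The S100A16 window held none of the 4 motifs. CCAAT was present in 4 of the 22 members and 35.7% of the promoters of whole length, GGGCGG in 10 members and 44.6%, and TGANTCA in 4 members and 7.76%. ANXA10 and S100A16 had 0 and 3 CG dinucleotides, S100A4 had 8, and the median promoter had 14. No share of these motifs was tested against the direction of change.

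The other genes of these pathways were taken as lists and are described by role. Receptors come first, as S100 proteins and annexins outside the cell act through them. Of 11 listed receptors, 8 were tested and 1 had an adjusted p under 0.05, against 10.7% of all loci. The median log2 fold change of the 8 was -0.14 (-0.135), against 0.005 over all loci, with 6 below 0 and 2 above. NPTN was lower without overlap between groups (log2 fold change -0.27, adjusted p = 0.0925 by limma). SDC4 had a log2 fold change of -0.24 (adjusted p = 0.157 by limma), and of -0.35 without si-CTRL 1 (adjusted p = 0.00486). Over all alternatives the adjusted p of SDC4 was between 0.00486 and 0.372. FPR1, FPR2 and FPR3, the formyl peptide receptors of ANXA1, were at 0 in all libraries. ANXA2R, a receptor for the ANXA2 complex, had 170, 264 and 228 normalized reads in si-CTRL 1, 2 and 3, and 371, 324 and 346 in si-SAM68 1, 2 and 3. It rose without overlap between groups, with a log2 fold change of 0.67 (adjusted p = 0.0307 by limma, standard error 0.164). The call was lost with the replicate block (adjusted p = 0.0533 by limma), without si-CTRL 3 and without each of the si-SAM68 libraries, the range over all alternatives being 0.00355 to 0.117. The pattern recognition receptor AGER, the receptor of many S100 proteins, had means of 113 and 93.2 in si-CTRL and si-SAM68 cells (log2 fold change -0.29, adjusted p = 0.326), and BSG, a surface partner of S100A9, means of 40466 and 39167 (-0.05, adjusted p = 0.813).

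Of 20 further partners, most of them intracellular, 19 were tested. An adjusted p under 0.05 was found in 4, AHNAK2 and MYOF higher and PLAT and TGM2 lower, against 10.7% of all loci, with a median log2 fold change of 0.02 over the 19. TGM2, the tissue transglutaminase, had 15555, 13018 and 13169 normalized reads in si-CTRL 1, 2 and 3, and 6796, 7382 and 6776 in si-SAM68 1, 2 and 3. This decrease was large against the spread, with a log2 fold change of -0.99 (adjusted p = 0.000307 by limma, standard error 0.088). PLAT, the secreted tissue plasminogen activator that the S100A10 and ANXA2 complex binds, had 8278, 6527 and 7376 in si-CTRL 1, 2 and 3, and 3941, 4098 and 3582 in si-SAM68 1, 2 and 3. It fell as well (log2 fold change -0.93, standard error 0.099, adjusted p = 0.000812 by limma), whereas PLAU, the urokinase gene, had means of 30487 ± 6563 and 28080 ± 2804 (SD, n = 3; adjusted p = 0.691). AHNAK2, of the giant scaffold proteins that bind S100A10, had 944, 943 and 699 in si-CTRL 1, 2 and 3, and 1134, 1894 and 1298 in si-SAM68 1, 2 and 3. It rose (log2 fold change 0.72, standard error 0.186, adjusted p = 0.0369 by limma), with the highest value in si-SAM68 2. Without that library the log2 fold change was 0.51 and the call was lost (adjusted p = 0.102 by limma). The call was also lost without si-SAM68 3 (adjusted p = 0.109 by limma), in a range of 0.000655 to 0.109 over all alternatives. AHNAK itself had 17844, 25739 and 15255, and 22076, 38406 and 27354, in the same order, again highest in si-SAM68 2. Its log2 fold change of 0.58 did not pass the test (adjusted p = 0.12) unless the replicate number was a block (adjusted p = 0.0225 by limma and 0.0209 by edgeR, in a range of 0.0209 to 0.331 over all alternatives), and it was 0.36 without si-SAM68 2. MYH9, the myosin chain that S100A4 binds, shares its locus with MIR6819 and had means of 174445 ± 23837 and 211323 ± 4349 (SD, n = 3), a log2 fold change of 0.29 with an adjusted p of 0.114 (0.37 and 0.0152 without si-CTRL 1, in a range of 0.0152 to 0.303 over all alternatives). The count of called partners was 7 without si-CTRL 1, where 15.1% of all loci were called, and 2 without si-CTRL 3, si-SAM68 2 or si-SAM68 3, where 5.85%, 4.29% and 3.32% were.

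Membrane-binding calcium sensors outside the annexin family were listed next. Of 20 listed, 16 were tested and 5 had an adjusted p under 0.05, against 10.7% of all loci, with MYOF and ESYT1 higher and CPNE5, SYT1 and SYT11 lower and a median log2 fold change of -0.01 (-0.005). MYOF, the ferlin of membrane repair that is also among the partners, rose from 16136 ± 1679 to 20209 ± 361 (SD, n = 3), with a log2 fold change of 0.33 (adjusted p = 0.0373 by limma, standard error 0.085). The call was lost with the replicate block (adjusted p = 0.0566, in a range of 0.00148 to 0.135 over all alternatives). ESYT1, a tether between endoplasmic reticulum and plasma membrane, rose from 12498 ± 359 to 15319 ± 684 (SD, n = 3; log2 fold change 0.29, adjusted p = 0.0293). SYT1, the calcium sensor of synaptic vesicles, fell from 866 ± 60.5 to 536 ± 55.1 (SD, n = 3; log2 fold change -0.69, adjusted p = 0.00504), and SYT11, which binds no calcium, from 121 ± 16.6 to 70.2 ± 4.65 (log2 fold change -0.77, adjusted p = 0.0207). The copine CPNE5 fell from 84.0 ± 9.34 to 38.5 ± 10.6 (SD, n = 3; log2 fold change -1.13, adjusted p = 0.0162). In each of the 5 the groups did not overlap. The count was 5 without si-CTRL 1, 2 without si-CTRL 2 and 3 without si-CTRL 3, against 15.1%, 8.45% and 5.85% of all loci. It was 2 without si-SAM68 1 and 1, SYT1, without si-SAM68 2 or 3, against 4.9%, 4.29% and 3.32%.

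Calmodulins and penta-EF-hand genes, which share the EF-hand with the S100 family, gave no call. None of the 12 tested of 15 listed genes had an adjusted p under 0.05 by limma or edgeR and 2 did by DESeq2, against 10.7%, 10.7% and 14.8% of all loci. An unadjusted p under 0.05 was found in 4, against 27% of all loci, and their median log2 fold change was 0.08. CALM2, in a locus joined with C2orf61 and with 39844 ± 8777 and 50634 ± 2715 normalized reads (SD, n = 3), had a log2 fold change of 0.37 with an adjusted p of 0.136, and of 0.17 without si-CTRL 1. GCA, or grancalcin, went from 228 ± 52.9 to 340 ± 20.1 (log2 fold change 0.60, adjusted p = 0.0559) and passed the thresholds of the study. Without si-CTRL 1 its log2 fold change was 0.39, a 1.31-fold change below the fold threshold, with an adjusted p of 0.0476. With DESeq2 the adjusted p was 0.0155, the range over all alternatives being 0.0155 to 0.19. Without si-CTRL 1 there were 2 calls in this list, against 15.1% of all loci. Of 11 other EF-hand genes of the S100 type, most of them genes of the cornified envelope, 10 were below the minimum with means of 6.05 or less. TCHH, or trichohyalin, was the only gene tested, with 124, 107 and 114 normalized reads in si-CTRL 1, 2 and 3 and 70.5, 65.3 and 92.7 in si-SAM68 1, 2 and 3. Its groups did not overlap, and its log2 fold change of -0.60 had an unadjusted p within the thresholds of the study but an adjusted p of 0.0664 by limma. Without si-CTRL 1 its log2 fold change was -0.54 and without si-SAM68 2 it was -0.50, both below the fold threshold. Neither edgeR nor DESeq2 gave it an adjusted p under 0.05.

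**Figure D5:**
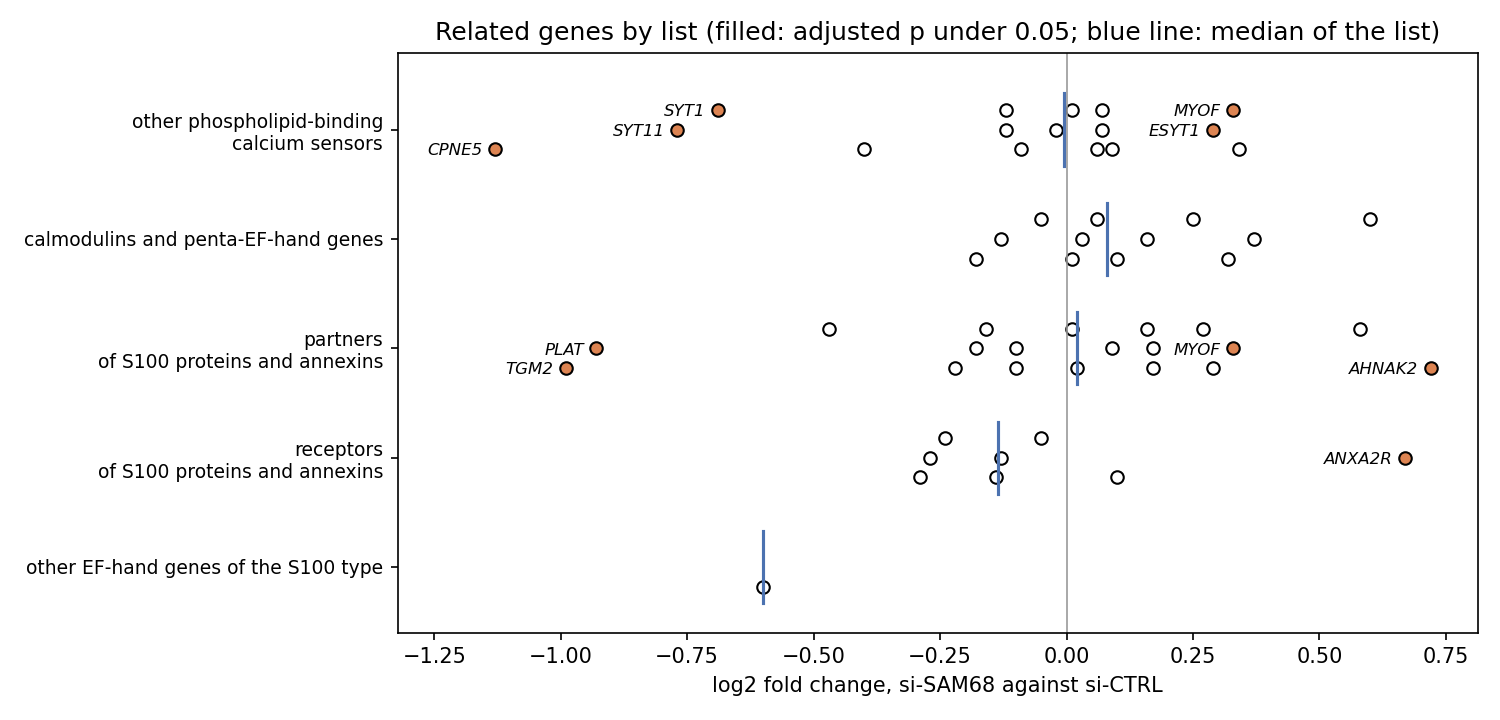
log2 fold change between si-SAM68 and si-CTRL of the tested genes of each list, with filled points for an adjusted p under 0.05 and a blue line at the median of the list. TGM2 (-0.99), PLAT (-0.93) and CPNE5 (-1.13) lie lowest and AHNAK2 (0.72) and ANXA2R (0.67) highest among the filled points.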

How the data were processed

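The authors deposited a signal for each FAST DB v2016_1 locus (hg19): reads divided by the DESeq2 size factor of the library. STAR 2.4.0 is named in the submitters' processing notes; the counting program and its use of strand are not given in the sources used here. In every library 100% of the values were whole multiples (within 0.01) of a single step, so reads were recovered. Groups came from the labels. Loci with a mean of at least 10 (18849, holding over 99.9% of the reads) were tested with limma 3.58.1 in R 4.3.3 (lmFit, eBayes with a trend) on log2(value + 1), where changes of genes with few reads are understated, with Benjamini-Hochberg adjustment over all of them. On recovered reads edgeR 4.0.16 (quasi-likelihood) gave 2026 loci an adjusted p under 0.05 and DESeq2 1.42.0 gave 2789, leaving 2209 without one. The fits were tested on simulated data; its pass limits were loosened and its dispersions redrawn from the real reads after earlier versions failed, since small changes were often missed. Other alternatives were pseudocounts of 0.1 and 5, no filter, a minimum mean of 50, TMM and quantile scaling, a robust trend, a replicate block and leaving out libraries.

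Libraries of the same replicate number deviated together (correlations of deviations from group means 0.105, 0.231 and 0.125, against -0.125 to 0.007 for other pairs). Deviations within a group cancel out, so the low correlations of other pairs are partly forced. The sample titles give these numbers but no pairing. The numbers were taken to pair the libraries in the replicate block and in tests within pairs, and the main fit was unpaired. Between replicates the spread exceeded that of counting, with a chi-square of 12.6 or more per degree of freedom. Members and lists were chosen with earlier results of these data known. Genes named are KHDRBS1, markers, all members, and from each list those with an adjusted p under 0.05 (at most 8); other list genes and ANXA8L1, ANXA2P2, CAMK2G, YARS and FAM63A were chosen after their values were seen. Lengths are of GENCODE 29 transcripts. Precision is limited by 3 libraries per group.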

Additional observations from a re-analysis of the deposited data

How the results depend on the processing

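KHDRBS1 and the ratios of partner genes kept their direction under all alternatives run. Without single libraries, the log2 fold change of KHDRBS1 was -4.66 to -4.56, the loci with an adjusted p under 0.05 were 625 to 2839, those past the thresholds of the study 1301 to 1831, and called members 3 to 8 by adjusted p and 3 to 5 by the thresholds. The ratios of S100A10 to ANXA2 and of S100A11 to ANXA1 differed by 0.27 to 0.33 and by -0.20 to -0.07. Without si-CTRL 1, 19 members did not overlap between groups, against 46.5% of all loci (33.9% with all libraries). Calls in the lists ranged from 0 to 2 (receptors), 2 to 7 (partners), 0 to 2 (calmodulins and penta-EF-hand genes) and 1 to 5 (other calcium sensors). With no filter, where 33359 loci were tested, 2240 loci passed the thresholds of the study and 1500 (4.5%) had an adjusted p under 0.05, and called partners were 2 and other sensors 3. With the replicate block the called loci were 1697 and the called members 6; called receptors were 0 by limma and by edgeR, and besides S100A4, ANXA2R, MYOF, AHNAK and IVL, and ANXA1 by edgeR, it changed no other call among the genes named. Called calmodulins and penta-EF-hand genes were 1 with a minimum mean of 50, 1 with quantile scaling and 2 with DESeq2, against 14.4%, 10.8% and 14.8% of all loci. Without both si-CTRL 1 and si-SAM68 2, chosen after seeing the data, called receptors were 2, partners 7 and penta-EF-hand genes 1, against 10.4% of all loci. The cause of these moves was not tested. Of 198 values of 11 members, which were those called in any fit and those of the complexes, none reversed, 19 lost and 5 gained an adjusted p under 0.05. Of the others, S100A2 and S100A13 changed sign without si-CTRL 1. With another library left out, S100A5 (log2 fold change 0.06 with all libraries) reached -0.03 and ANXA9 (-0.00 with all libraries) reached 0.12. Differences within pairs of the same replicate number, also chosen after seeing the data, left the ratios at 0.30 and -0.13.

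The limits are 3 libraries per group, the low short transcripts in si-CTRL 1, the rRNA reads in si-SAM68 2, and copies or overlapping loci (ANXA8, ANXA2, S100A1, ANXA9 and S100PBP among others).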
